A study of Mus musculus with 4 samples.

Results

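Genes that encode transcription factors of the microglial lineage, Spi1, Irf8, Sall1, Maf, Runx1, Ikzf1, Mef2a, Mef2c and Fli1, were followed through the nuclei of the mouse brain. They were chosen by gene symbol and make up 9 of the 31053 gene rows, each present in all 4 libraries. The libraries hold single-nucleus RNA counts from whole brains of 2-month-old female C57/BL6 mice, 2 WT and 2 Csf1r+/- (HET), with 1 mouse per library as the study describes it. The Csf1r+/- mice carry 1 disrupted copy of the CSF-1 receptor gene in every cell from the germline on, so a difference in a neuron or a vessel cell may not start in that cell, and no other allele or treatment was given to either group. All mice were perfused before detergent-free isolation of nuclei, and myelin debris was removed with magnetic beads. Counts are of unique molecular identifiers (UMIs), 1 per captured transcript, and levels are given as CPM, the UMIs of a gene for each 1000000 UMIs summed over the nuclei of a class in a library.

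Microglia are the resident macrophages of the brain, seeded from yolk sac precursors and kept alive by CSF-1 receptor signaling. Their identity rests on a layered set of DNA-binding proteins: PU.1, the product of Spi1, opens macrophage enhancers together with IRF8 and RUNX1, while SALL1 and the MEF2 proteins are tied to the state that macrophages adopt in brain tissue. Several of these proteins have other jobs, among them MEF2C in the activity-dependent wiring of neurons, c-MAF in the development of cortical interneurons, IKAROS (Ikzf1) in lymphocytes and FLI1 in blood vessel endothelium.

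In mouse build GRCm38 with GENCODE release M21, Spi1 lies at chr2:91082390-91115756 and encodes an ETS factor, and Fli1, the other ETS factor, lies at chr9:32422204-32542861. Irf8, an interferon regulatory factor that pairs with PU.1, is at chr8:120736358-120756694. On the same chromosome are Sall1 (chr8:89027235-89044162), a zinc finger repressor, and Maf (chr8:115682942-115707794), a basic leucine zipper factor. Runx1, a runt domain factor, spans chr16:92601466-92826149, and Ikzf1, the zinc finger factor IKAROS, spans chr11:11685003-11772926. The MADS box genes Mef2a and Mef2c are at chr7:67231163-67372858 and chr13:83504034-83667080.

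RefSeq promoter windows of 300 bases (250 before to 50 after a start site, GRCm38.p6) were at hand for 6 of the 9 members. They were searched on both strands for the letters that the families of these factors bind. The letters were GAGGAA for an ETS core (in 28.3% of all 32851 mouse windows), TGTGGT for RUNX (16.8%), CTANNNNTAG for MEF2 (3.69%) and GAAANNGAAA for a paired IRF motif (3.44%). Of the 5 windows with a match, 3 are shown, 1 for each gene that had any. In Runx1 (chr16:92826025-92826324, minus strand) the capitals mark 2 RUNX matches on the opposite strand just past the start site, in Mef2a (chr7:67372809-67373108, minus strand) a MEF2 box, and in Mef2c (chr13:83523406-83523705, plus strand, the second of its 3 windows) an ETS core.
Runx1: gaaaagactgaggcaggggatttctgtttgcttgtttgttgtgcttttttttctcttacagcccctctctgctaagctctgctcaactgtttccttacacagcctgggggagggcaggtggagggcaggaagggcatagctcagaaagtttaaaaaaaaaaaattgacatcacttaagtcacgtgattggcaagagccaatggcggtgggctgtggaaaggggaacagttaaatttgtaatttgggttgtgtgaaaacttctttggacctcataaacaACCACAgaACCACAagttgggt
Mef2a: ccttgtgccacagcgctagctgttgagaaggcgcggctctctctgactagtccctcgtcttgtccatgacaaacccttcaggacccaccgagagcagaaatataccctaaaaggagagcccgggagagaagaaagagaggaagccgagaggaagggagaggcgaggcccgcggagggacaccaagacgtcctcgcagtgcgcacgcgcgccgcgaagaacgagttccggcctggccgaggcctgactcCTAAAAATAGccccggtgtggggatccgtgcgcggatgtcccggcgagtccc
Mef2c: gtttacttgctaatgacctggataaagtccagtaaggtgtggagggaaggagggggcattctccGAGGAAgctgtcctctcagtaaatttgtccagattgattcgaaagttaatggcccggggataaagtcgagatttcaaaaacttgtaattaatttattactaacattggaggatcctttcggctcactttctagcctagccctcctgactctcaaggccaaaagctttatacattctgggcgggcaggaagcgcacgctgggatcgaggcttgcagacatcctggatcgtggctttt
The Mef2a window also holds 2 ETS cores, printed in lower case. The first Mef2c window and the second Runx1 window, not printed, hold 1 ETS core each. None of the 4 motifs was found in the windows of Irf8, Sall1 and Ikzf1, which says only that these letters are not in those 300 bases. A match is a string of letters and was not tested as a binding site.

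Between 9589 and 16114 nuclei per library passed the filters (500 to 50000 UMIs, more than 200 genes, under 5% mitochondrial UMIs), 52132 in all, with medians of 4636 to 7454 UMIs per nucleus. They formed 57 clusters, named from fixed marker lists where the markers allowed it. Microglia were 1 cluster of 661 nuclei (179 and 169 in WT, 169 and 144 in HET) with 16 of 16 microglial markers, and 1.21% of its nuclei had high doublet scores. Their median depth was 1262 UMIs, against 7042 in 26524 excitatory neurons, 4370 in 7755 inhibitory neurons and 1302 in 454 endothelial cells. The single mural cluster (218 nuclei) also carried 13 of 13 endothelial markers, and 32.6% of its nuclei had high doublet scores. The 54 fibroblasts, 57 astrocytes and 146 oligodendrocyte precursors gave few UMIs, so their levels are rough. Another 14351 nuclei (27.5%) stayed unnamed, among them 3 clusters of 168, 150 and 58 nuclei that carried microglial markers together with those of other classes. Barcodes found in more than 1 library numbered 272. Csf1r itself, counted at its 3′ end, stood in microglia at 883 and 819 CPM in the WT libraries and at 604 and 598 CPM in HET, lower in both HET libraries, as the labels would have it, although the position of the disrupted part relative to the counted tags is not given in the sources used here.

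All 9 factors were higher in microglia than in any other named class, in 4 of 4 libraries, with nuclei classed by cluster. With nuclei classed by marker UMIs alone, Maf was lower in microglia than in inhibitory neurons (log2 ratio -0.60), Mef2c lower than in excitatory neurons (-0.20) and Fli1 lower than in endothelial cells (-0.75). Of these 1439 nuclei, 650 lay in the microglial cluster, with a median of 1262.5 UMIs. Another 203 lay in excitatory clusters (median 12378 UMIs) and 524 in unnamed clusters (7126.5 UMIs, 60.5% with high doublet scores). The class drawn by marker UMIs thus took in deeper nuclei from other clusters, whose part in these ratios was not tested. The factors differed in what came next. Spi1, Irf8, Runx1 and Ikzf1 were close to limited to microglia. Fli1 was shared with endothelial cells and with the mural cluster, which also carried endothelial markers. Maf was shared with interneurons, Mef2a with most of the brain and Mef2c with neurons. Mef2c was also counted in the other classes, in part within the range of stray neuronal RNA given below. Sall1 stood between, with low levels in oligodendrocytes, astrocytes and a few inhibitory clusters. These levels are descriptions of classes and were not tested, since the clusters were drawn from the same nuclei.

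**Figure D1:**
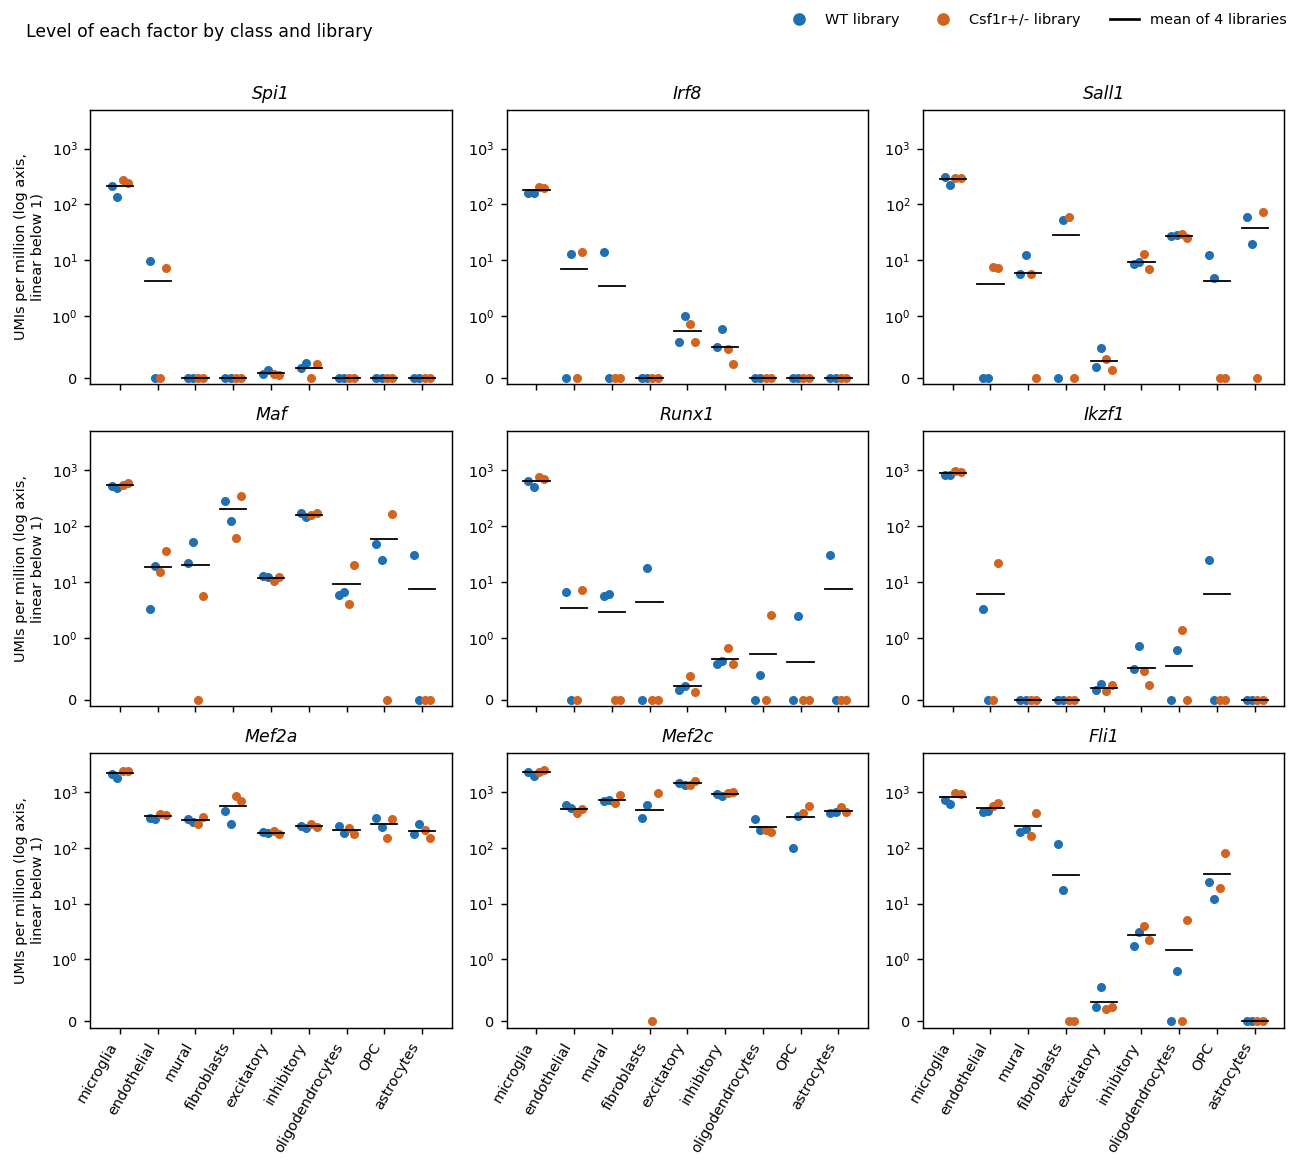
Level of each factor in 9 classes as CPM on a log-like axis that shows 0, with 1 point per library and a bar at the mean of the 4 libraries. Microglia sit highest in all 9 panels, with mean levels from 181 CPM (Irf8) to 2237 CPM (Mef2c), and overlap with the next class for Fli1 alone.

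Spi1 encodes PU.1, the factor without which macrophages do not form. Its level in microglia was 217 ± 60.3 CPM (SD, n = 4 libraries), and 0 UMIs were counted in mural cells, fibroblasts, oligodendrocytes, oligodendrocyte precursors and astrocytes. Those counts of 0 allow levels of up to 0.760 CPM in oligodendrocytes and 24.4 CPM in fibroblasts, the deepest and the shallowest of these classes. Excitatory neurons held 17 UMIs in 26524 nuclei, 0.0791 CPM on average. In endothelial cells 4 UMIs were found, 3 of them in 1 library. A Spi1 UMI was seen in 26.3% of microglial nuclei and in 21.3% of the 475 nuclei deep enough to be thinned to 1000 UMIs, against 0.0113% of excitatory neurons at that depth.

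Irf8, which drives the microglial program with PU.1, reached 181 ± 25 CPM in microglia. Excitatory neurons held 0.761 ± 0.216 CPM, and no UMI was counted in fibroblasts, oligodendrocytes, oligodendrocyte precursors or astrocytes. With 167 UMIs over 26524 excitatory nuclei, the neurons contributed 31.2% of all Irf8 UMIs in the brain, about as many as the 30.8% from microglia, from 26524 nuclei against 661. Among the 4 factors of this group it was the one whose neuronal signal lay above most of the background described below.

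Runx1, a factor of blood and macrophage precursors, stood at 653 ± 115 CPM in microglia. Every other class averaged 7.46 CPM or less, and the highest of these, astrocytes, rested on 1 UMI. Ikzf1 (IKAROS) reached 887 ± 81.9 CPM in microglia, with 6.17 CPM in endothelial cells from 4 UMIs and 0.194 CPM in excitatory neurons. Microglia were 1.27% of the nuclei and held 53.3% of the Spi1, 51.8% of the Runx1 and 54.0% of the Ikzf1 UMIs. The unnamed clusters, with 27.5% of nuclei, held 39.1% of the UMIs of Spi1, 40.4% of those of Runx1 and 40.9% of those of Ikzf1.

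Stray transcripts from broken cells enter every droplet, so low counts in neurons need a yardstick. The 16 microglial markers (Tmem119, P2ry12 and others), which neurons should lack, gave one: in excitatory neurons they stood at a median of 0.0636% of their microglial level (range 0.0217% to 2.13%). Against this, Spi1 stood at 0.0350%, Runx1 at 0.0327%, Ikzf1 at 0.0214% and Fli1 at 0.0364%, all inside or under the range of the markers and read here as background. Irf8 stood at 0.409%, which 4 of the 16 markers matched or passed. Pooled over the libraries, Maf at 2.25%, Mef2a at 8.74% and Mef2c at 64.7% were above all 16. For Maf the margin was narrow, and the highest marker, at 3.36% in WT replicate 2 and 2.98% in HET replicate 2, passed it in those libraries. The plot of levels against this background sets the same comparison out for 3 classes.

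**Figure D2:**
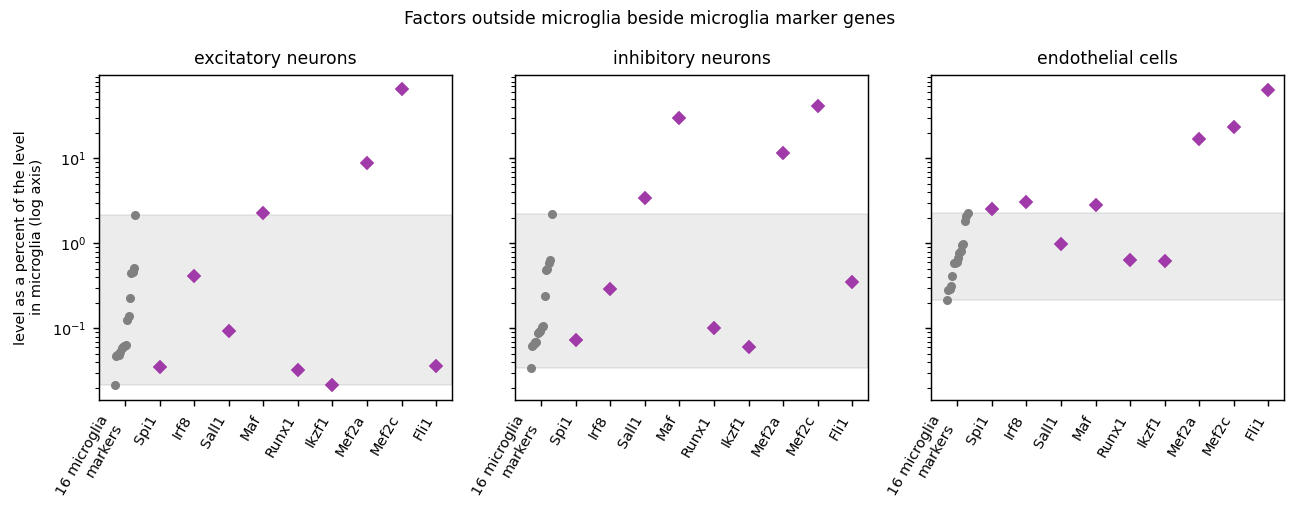
Level of each factor outside microglia as a percent of its microglial level (log axis), in excitatory neurons, inhibitory neurons and endothelial cells, with the 16 microglial markers as grey points and their range as a grey band for the background of stray transcripts. In excitatory neurons, pooled over the libraries, Mef2c (64.7%), Mef2a (8.74%) and, narrowly, Maf (2.25%) lie above every marker. Spi1, Runx1, Ikzf1 and Fli1 lie among or below the markers.

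In endothelial cells the markers stood at a median of 0.642% (range 0.217% to 2.31%). Runx1 (0.632%), Ikzf1 (0.616%) and Sall1 (0.972%) fell inside this range, Spi1 and Irf8 were slightly above it on 4 UMIs each, and Maf was at 2.83% on 11 UMIs. Fli1 (62.8%), Mef2c (23.6%) and Mef2a (16.7%) were far above it. The reverse yardstick, 19 neuronal markers in microglia, had a median of 20.6% of the excitatory level and a highest value of 110%, so microglial nuclei carried much neuronal RNA. Mef2c in microglia stood at 155% and Mef2a at 1145% of the excitatory level, above all 19. In endothelial cells the same 19 markers stood at 10.3% to 65.3% of the excitatory level. Mef2a, at 191%, lay above that range. Mef2c, at 36.5%, lay inside the range, and 4 of the 19 markers matched or passed it. By library the median of these markers was 28.0% and 26.3% in WT and 9.53% and 8.56% in HET. Endothelial Mef2c stood at 582 and 522 CPM in the WT libraries and 414 and 500 CPM in HET, a smaller drop. The range alone did not tell these Mef2c counts from stray neuronal RNA, and their stray share was not tested. In oligodendrocytes Mef2c stood at 15.2%, inside a marker range of 10.4% to 48.5%.

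Sall1, a repressor that marks microglia among macrophages, reached 284 ± 43.5 CPM in microglia. Oligodendrocytes were next among the classes with many nuclei, at 27.6 ± 2.02 CPM, 10.1% of the microglial level, where none of the 16 microglial markers passed 2.24%. Astrocytes averaged 38.3 CPM and fibroblasts 28.3 CPM, each on 4 UMIs. Neighbours in this order, astrocytes, fibroblasts and oligodendrocytes, overlapped over the libraries. Among neurons Sall1 was close to absent from excitatory cells (0.278 CPM) and averaged 9.43 ± 2.63 CPM in inhibitory ones, where it was concentrated in a cluster led by Lgr6 and Frmd7 (31.9 CPM, 29.4 to 33.9 over libraries) and in one with Sall3, Pax6 and Th among its leading genes (38.2 CPM, 24.6 to 74.0). An unnamed cluster of 459 nuclei with 10 of 12 oligodendrocyte and 1 of 11 oligodendrocyte precursor markers, and with Enpp6, Anln and Apod among its leading genes, held 55.8 CPM.

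Fli1, an ETS factor of endothelium and blood, was the vascular member. It stood in microglia at 726 and 619 CPM in the WT libraries and 954 and 929 CPM in HET, and in endothelial cells at 440 and 450 CPM in the WT libraries and 560 and 643 CPM in HET. Microglia were higher in every library, by 0.62 ± 0.15 (SD) on the log2 scale, yet the highest endothelial value passed the lowest microglial one. Of the 2 endothelial clusters, the one led by Ly6c1 and Ly6a held 583 CPM and the one led by Slco1a4 and Flt1, a transporter and a VEGF receptor of the blood-brain barrier, held 456 CPM. Over the libraries these clusters ran from 467 to 718 CPM and from 421 to 612 CPM, overlapping, and WT replicate 1 gave 3 nuclei of the first and 224 of the second. Mural cells came next at 247 ± 116 CPM, a value that the endothelial markers and doublet scores of that cluster accompany and whose part in it was not tested. In neurons Fli1 was near 0, with 2.76 CPM in inhibitory cells.

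The closest relatives of Fli1 and Spi1 had another distribution, while more distant ETS genes are not described here. Erg, the closest relative of Fli1, held 202 CPM in endothelial cells and 1 UMI in microglia, and Spib and Spic, the relatives of Spi1, had 0 UMIs in microglia. Of the IRF, SALL, RUNX, IKAROS and MEF2 families, the relatives with the highest levels in microglia were Irf2 at 295 CPM, Sall3 at 135 CPM, Runx2 at 43.7 CPM, Ikzf2 at 86.3 CPM and Mef2d at 83.0 CPM. Runx2 was at its lowest of the 9 classes there, against 183 CPM in excitatory neurons, a ratio within the range of the neuronal markers in microglia, and is not read as expressed in them. Sall3 was far lower in the other classes except astrocytes (83.4 CPM, on few nuclei), while Irf2, Ikzf2 and Mef2d were counted in neurons and glia alike.

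Maf, which encodes c-MAF, stood at 536 ± 54.1 CPM in microglia and at 160 ± 11.6 CPM in inhibitory neurons. Fibroblasts averaged 204 CPM on 23 UMIs, with values from 60.6 to 345 CPM that overlapped those of inhibitory neurons. The inhibitory signal came from 3 clusters: a Pvalb interneuron cluster with 8 of 8 markers (241 CPM), a Sst interneuron cluster led by Sst and Npy (297 CPM) and a cluster led by Vip with Vip and Lamp5 interneuron markers (228 CPM). In the Sst cluster the libraries ranged from 256 to 345 CPM, and 66.8% of its nuclei had a Maf UMI. The other inhibitory clusters held 5.85 to 13.4 CPM, and excitatory clusters 1.42 to 37.7 CPM. Because of their number, inhibitory neurons held 53.1% of all Maf UMIs, excitatory neurons 20.4% and microglia 3.66%.

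Mef2a and Mef2c encode MADS box factors that respond to calcium and activity. Mef2a stood at 2160 ± 282 CPM in microglia and between 187 and 565 CPM in all 8 other classes, so that microglia exceeded endothelial cells 5.91-fold and excitatory neurons 11.6-fold, as ratios of the means. Below microglia, each class overlapped with the next in order over the libraries. In the neuron clusters Mef2a ran from 117 to 504 CPM, and a cluster of 1698 nuclei with 7 of 8 thalamic markers held 400 CPM.

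Mef2c was the factor most shared with neurons. It stood at 2237 ± 235 CPM in microglia, 1427 ± 108 CPM in excitatory and 927 ± 58.0 CPM in inhibitory neurons, and these 3 classes did not overlap. Endothelial cells held 505 ± 69.5 CPM and mural cells 730 ± 101 CPM. The endothelial level lay within the range of stray neuronal RNA given above. Microglia exceeded excitatory neurons 1.57-fold, the smallest gap from microglia to neurons among the 9 factors. Excitatory neurons held 77.1% of all Mef2c UMIs in the brain and microglia 0.481%.

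Among neuron clusters Mef2c varied as widely as between classes. It ran from 173 CPM in a cluster led by Gm2115, Slc9a4 and Fibcd1 to 2235 CPM (1850 to 2558 over libraries) in a cluster of 5421 nuclei with Rorb and Rspo1, markers of cortical layer 4, where 99.8% of nuclei had a UMI. That cluster matched the level in microglia. A cluster led by Glis3 and C1ql2, genes of dentate granule cells, held 561 CPM. Among inhibitory clusters the Pvalb cluster was highest at 1476 CPM, and a cluster led by Ano1 and Prdm16 was lowest at 316 CPM. The plot of neuron clusters shows Maf highest in 3 interneuron clusters and Mef2c graded over both kinds of neuron.

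**Figure D3:**
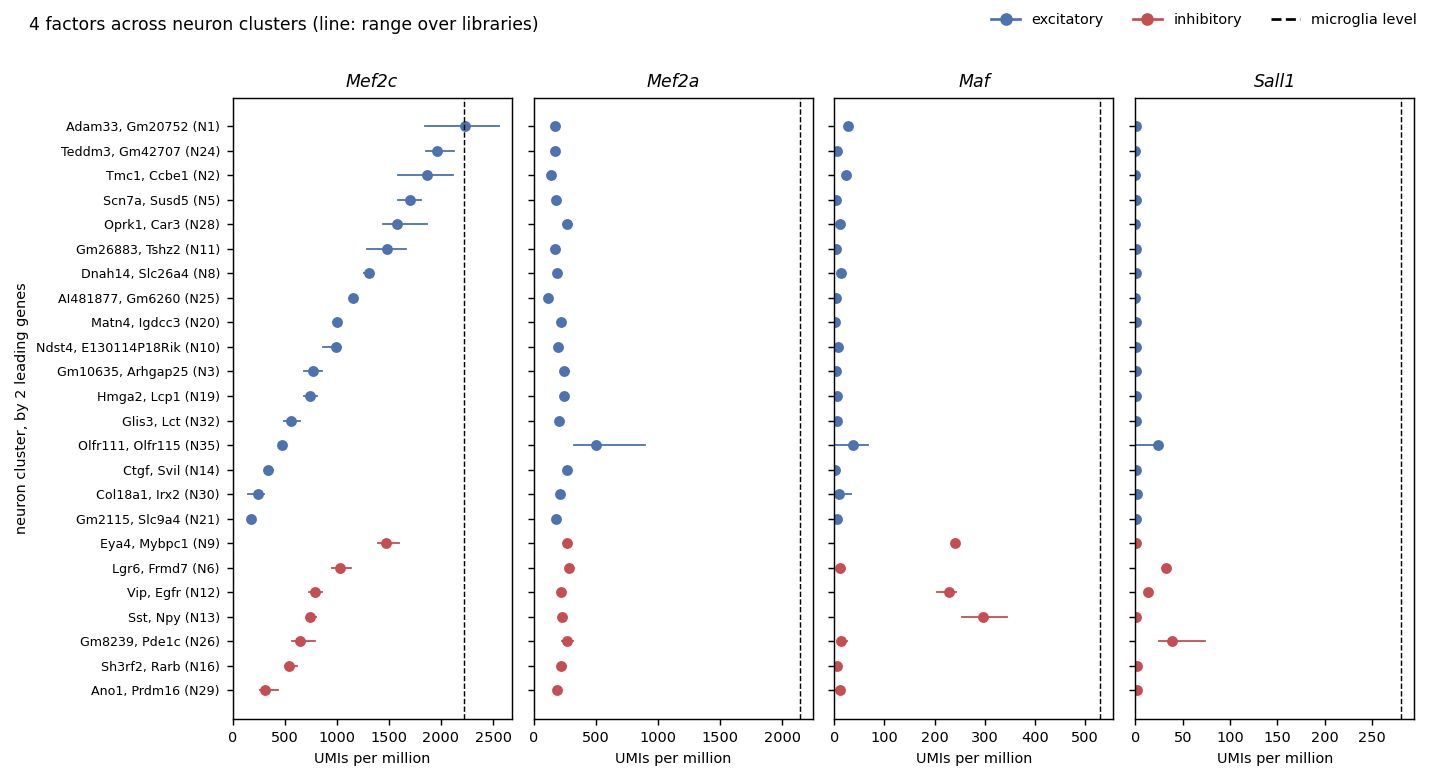
Levels of 4 shared factors in neuron clusters (CPM), with 1 point per cluster over all libraries, a line for the range over the 4 libraries, and a dashed line at the microglial level. Mef2c ran from 173 to 2235 CPM over excitatory clusters, and Maf stood above 200 CPM in 3 inhibitory clusters.

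Several factors were counted in most single microglial nuclei. A microglial nucleus held UMIs of 4.30 to 5.11 of the 9 factors on average by library, and 85.5% to 94.7% of nuclei held at least 3. After thinning to 1000 UMIs the mean was 4.03 to 4.45. Endothelial nuclei at the same depth held 3 or more factors in 3.28% to 4.92% of cases. At that depth Mef2c was seen in 87.4% of microglial nuclei, Mef2a in 84%, Ikzf1 in 56%, Fli1 in 53.1%, Runx1 in 45.1%, Maf in 40.6%, Sall1 in 22.9% and Irf8 in 15.8%. The same thinning left Mef2c in 67.0% of excitatory and 50.7% of inhibitory nuclei.

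The 661 microglia were divided again into 5 groups, of 204, 167, 154, 126 and 10 nuclei. Over the 4 larger groups Runx1 ran from 557 to 864 CPM and Irf8 from 152 to 284 CPM, the highest Irf8 lying in a group with Tmsb4x and Actb among its leading genes. The smallest group, 9 of whose nuclei came from WT replicate 2, was led by oligodendrocyte genes such as Aspa and Gjc3. Border macrophages, which live in the meninges and around vessels, were looked for among all nuclei by at least 3 of their markers, a choice made after the values were seen. The 17 such nuclei without a high doublet score (61003 UMIs) held 0 Sall1 UMIs, where the microglial level would give 17.1, and 34 Maf UMIs, where it would give 32.4. They also held 22 Runx1, 9 Ikzf1 and 13 Fli1 UMIs against 39.5, 54.1 and 48.8 at the microglial level. Spi1 (6 against 13.1 UMIs), Irf8 (2 against 10.997), Mef2a (31 against 130.6) and Mef2c (45 against 135.3) were lower too. Of the 9 factors only Maf was not below the microglial level, so low counts were not limited to Sall1. The part of RNA from other cells in these counts was not tested. A further 15 nuclei led by Cd74 and H2-Aa, genes of antigen presentation, held 23 Spi1 and 18 Irf8 UMIs of 74305, with 0 of Sall1 and 1 of Maf.

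Among the genes whose pooled levels over the 57 clusters ran most closely with each factor were, for Spi1, Arhgap45, Havcr2 and Pld4 (Pearson r of log2(CPM + 1), 0.97 for the first). Irf8 ran with Spi1 (0.94), Arhgap45 and Havcr2, Ikzf1 with Arhgap45 (0.96), Nlrp1b and Selplg, and Runx1 with Cd37 (0.86) and Myo1f, genes of leukocytes for the most part. Fli1 ran with Casp8 (0.94) and Anxa3. Likeness was lower for Sall1, with Lamp2 (0.76), Pnpla7 and AC161607.1, and for Mef2c, with Lyzl4 (0.75), Slc7a8 and Pdzrn3. Maf ran with Gm15655 (0.72), Dock11 and Ptgs1, and Mef2a with Lysmd4 (0.88), Dhx9 and Morc3. Gm15655 overlaps Maf, and Lysmd4 overlaps Mef2a, each on the opposite strand, and since the strand setting of the counting is not given in the sources used here, reads of these pairs may not be told apart. The clusters share libraries and differ in depth, and 16464 genes were compared for each factor.

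The genotype comparison asks whether a lowered dose of the CSF-1 receptor goes along with a change in these factors. UMIs of each class were added up within a library, and the 4 sums were compared with edgeR's quasi-likelihood test. An exact permutation test of 2 against 2 libraries cannot go below p = 0.333, so the calls rest on the spread shared over all genes. In microglia, 0 of the 9 factors passed an adjusted p of 0.05, and neither did any of the 9415 genes tested (0%), while 344 genes (3.65%) and 0 factors were under an unadjusted p of 0.01. The summed depth was 216245 and 260075 UMIs in WT and 251684 and 187279 UMIs in HET.

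Each factor had a higher mean in HET microglia, by values that did not pass the test. Spi1 stood at 213 and 135 CPM in the WT libraries and 274 and 246 CPM in the HET libraries, with a log2 difference of 0.59 (SE 0.28, edgeR adjusted p = 0.495). Fli1 stood at 726 and 619 CPM in the WT libraries and 954 and 929 CPM in HET, a log2 difference of 0.48 (SE 0.22, edgeR adjusted p = 0.496). For both the HET libraries lay above the WT libraries, and these were the 2 factors under an unadjusted p of 0.05, where 9.86% of all genes were.

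Runx1 was at 647 and 496 CPM in the WT libraries and at 763 and 705 CPM in HET, a log2 difference of 0.35 (SE 0.23). Irf8 was at 157 and 161 CPM against 207 and 198 CPM, a log2 difference of 0.33 (SE 0.26). Ikzf1 was at 814 and 823 CPM against 981 and 929 CPM. The adjusted p of these factors lay between 0.686 and 0.832.

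Mef2a was at 2095 and 1792 CPM in the WT libraries and 2336 and 2419 CPM in HET, and Mef2c at 2294 and 1896 CPM against 2328 and 2430 CPM. Maf was at 523 and 473 CPM against 544 and 603 CPM. Sall1 was the one factor whose genotypes overlapped, at 314 and 219 CPM against 302 and 299 CPM. Log2 differences of these 4 ran from 0.17 to 0.28, and the 95% interval of each included 0, reaching from -0.37 to 0.71 for Sall1.

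**Figure D4:**
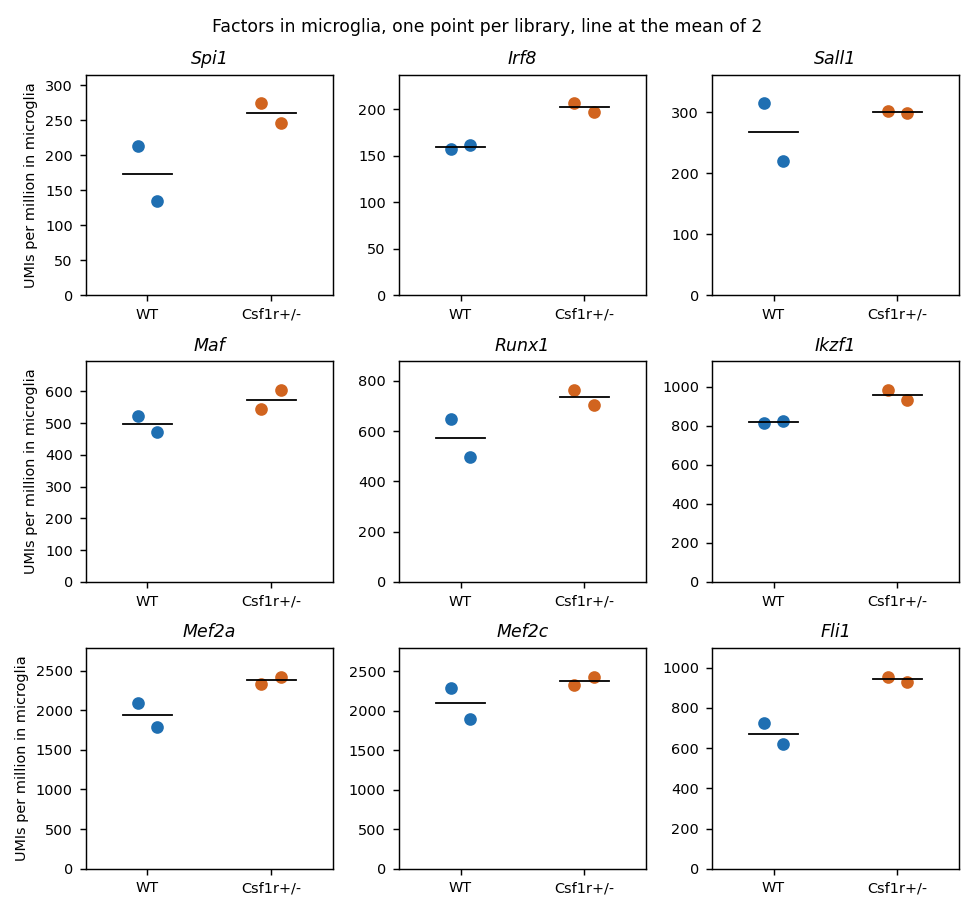
Level of each factor in microglia (CPM, axes from 0), with 1 point per library and a bar at the mean of each genotype. Both Csf1r+/- points lie above both WT points for 8 factors, Sall1 being the exception, and 0 of the 9 differences passed the test.

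The 8 factors without overlap all had the higher levels in HET, where 20.2% of all genes tested were without overlap in that direction and 39.5% in either. Neuronal RNA in the microglial nuclei also differed between the genotypes, and its part in this count was not tested. Summed over the 10 pan-neuronal markers, it was 4823 and 5168 CPM in the WT libraries and 2153 and 2915 CPM in HET microglia, higher in WT, with 0 markers at 0 in any library. The 16 microglial markers summed to 18396 and 13404 CPM in the WT libraries and 21897 and 18464 CPM in HET, and the estimated share of stray RNA was 26.7% and 46.8% against 13.9% and 22.6%. The 12 oligodendrocyte markers summed to 1319 CPM in WT replicate 2 and to 106 to 208 CPM in the other libraries.

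When the estimated stray RNA was subtracted, 3 of the 9 factors were without overlap (17.6% of all genes in the same direction), and the log2 difference was 0.30 for Spi1 and 0.19 for Fli1. When nuclei were instead classed by their marker UMIs alone, which gave 1439 nuclei called microglia, 650 of them in the microglial cluster, 203 in excitatory, 57 in inhibitory and 524 in unnamed clusters, 0 factors were higher and 7 were lower in HET without overlap (25.7% of genes). Without WT replicate 2, the log2 difference was 0.24 for Spi1, 0.12 for Runx1 and -0.12 for Sall1. The direction of the microglial differences thus depended on how nuclei were summed, as the plot of the 3 ways of summing shows. It turned for 8 factors with nuclei classed by marker UMIs and for 3 after subtraction of stray RNA. When 1 library was left out, 34 member values kept their direction and 2 turned, those of Sall1 and Mef2c without WT replicate 2. The nuclei classed by marker UMIs in excitatory clusters had a median of 12378 UMIs, against 1262.5 for those in the microglial cluster.

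**Figure D5:**
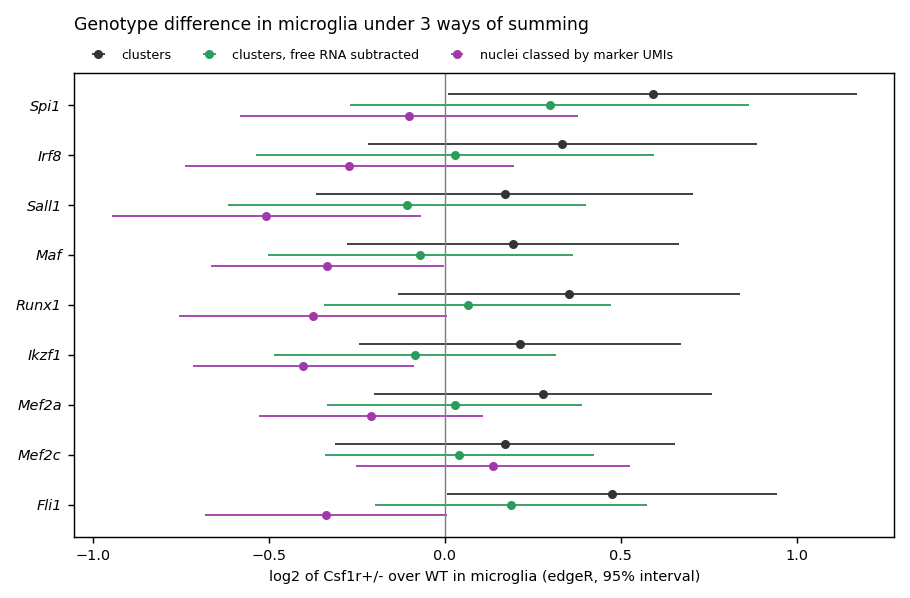
Log2 difference of Csf1r+/- over WT in microglia for each factor with its 95% interval from edgeR, for nuclei classed by cluster, after subtraction of stray RNA, and for nuclei classed by marker UMIs. All 9 points lie above 0 in the first way, and 8 of the 9 lie below 0 in the third, Mef2c being the exception.

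In excitatory neurons 0 of the 9 factors and 0 of 21346 genes (0%) were called, with 121 genes (0.567%) and 0 factors under an unadjusted p of 0.01. Mef2c stood at 1462 and 1328 CPM in the WT libraries and 1354 and 1564 CPM in HET, overlapping, with a log2 difference of 0.12 (95% interval -0.27 to 0.51). Mef2a differed by 0.06 (interval -0.27 to 0.38). Both intervals included 0.

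In inhibitory neurons 8 factors could be tested, since Spi1 had 7 UMIs, and 0 were called, as were 0 of 18080 genes (0%; 87 genes, 0.481%, under an unadjusted p of 0.01). Maf stood at 169 and 146 CPM in the WT libraries and 155 and 170 CPM in HET, a log2 difference of 0.07 (interval -0.23 to 0.37). Mef2c was at 929 and 846 CPM against 955 and 979 CPM, higher in both HET libraries by 0.15 (interval -0.16 to 0.45) on the log2 scale.

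In endothelial cells 4 factors (Maf, Mef2a, Mef2c and Fli1) had enough counts, and 0 were called, where 108 of 9017 genes (1.2%) were called, 107 (1.19%) of them lower in HET, and 353 genes (3.91%) and 0 factors were under an unadjusted p of 0.01. Fli1 was at 440 and 450 CPM in the WT libraries and 560 and 643 CPM in HET, a log2 difference of 0.41 (SE 0.25, edgeR adjusted p = 0.659) that came to 0.059 after subtraction of stray RNA. Mef2a was at 336 and 326 CPM against 406 and 393 CPM, and Mef2c at 582 and 522 CPM against 414 and 500 CPM, with a log2 difference of -0.31 (SE 0.25, adjusted p = 0.771). The sign of the Mef2c difference turned after subtraction of stray RNA (0.44), at resolution 0.5 (0.017) and with nuclei classed by marker UMIs (0.076). WT replicate 1 gave 227 of the 454 nuclei, and the estimated stray RNA was 29.97% and 53.0% in WT against 21.6% and 16.1% in HET, higher in WT as in microglia. The 2 endothelial clusters also took different shares of the libraries: the one led by Slco1a4 and Flt1 held 224 and 44 nuclei in WT against 38 and 51 in HET, the one led by Ly6c1 and Ly6a 3 and 41 against 30 and 23, and the part of this in the differences was not tested.

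Whether the genotype effect differed between microglia and another class was tested as an interaction. None of the 9 factors was called against excitatory neurons, inhibitory neurons or endothelial cells, where 0.73%, 0.629% and 0.0255% of all genes were. Fli1 against excitatory neurons came nearest, with 1.13 (SE 0.43) more on the log2 scale in microglia (edgeR adjusted p = 0.328, under an unadjusted p of 0.01). Since the Fli1 counts of excitatory neurons were read above as background, this term cannot show whether Fli1 itself responds differently in these classes. Excitatory neurons held 66 Fli1 UMIs in all, and the difference rested on single libraries: it was 1.82 (SE 0.49, edgeR adjusted p = 0.031) and called without WT replicate 1, and 0.47 (SE 0.55, adjusted p = 1) without WT replicate 2. In endothelial cells and microglia the Fli1 differences were 0.41 and 0.48, and the interaction was -0.02 (SE 0.32).

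The 3 gene lists place the 9 factors among related genes. Of 51 other transcription factors of microglia and macrophages, 41 could be tested in microglia and 0 were called. Their median log2 difference was 0.22, with 31 above 0, where the median of all genes was 0.0014. The smallest p belonged to Smad2, a mediator of TGF-beta signaling (0.73, edgeR adjusted p = 0.409), Nfatc2 (0.69) and Stat3 (0.58). Of 29 relatives of the members 12 could be tested and 0 were called, with a median of 0.20, the smallest p belonging to Ikzf5 (-1.42), Ikzf2 (0.66) and Irf9 (1.10).

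Of 36 microglial genes listed as regulated by these factors or their partners, all could be tested and 0 were called, with a median of 0.31 and 33 above 0. P2ry13, a purinergic receptor, stood at 105 CPM in the WT libraries and 191 CPM in HET on average (log2 difference 0.87, edgeR adjusted p = 0.256). Csf1r had the next smallest p, with -0.51, followed by Gpr34, with 0.62. The shift of the 3 lists to positive values accompanied the lower neuronal marker sums in HET microglia given above, whose part in it was not tested. Every microglial marker except Apbb1ip is also in the list of regulated genes. The microglial marker sum is therefore no separate measure for that list. In excitatory neurons the median of this list was -0.17 and in inhibitory neurons -0.11, with 0 genes called in either.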

How the data were processed

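The deposited values are raw UMI counts, whole numbers for each gene in each called nucleus, made by the authors with Cell Ranger on mm10 (per the submitters' processing notes) from Chromium 3′ libraries, without normalization. Of the mice per genotype in the study, 2 WT and 2 HET libraries were analysed, and the third of each was not used here. Deposited depth was 89436507 to 112226479 UMIs per library. Replicates are separate mice.

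Nuclei were filtered as stated in the report and clustered with scanpy 1.11.5 and leidenalg 0.10.2 (3000 variable genes without the members, 30 components, resolution 1, scaling within each library, seed 1). Non-neuronal nuclei were clustered again with 25 components. Cluster names rest on fixed markers, each seen in 10% or more of a cluster's nuclei, with 3 or more needed per class. Markers had to stand 2-fold or more above the other nuclei, except those of excitatory neurons, which had only to reach the level of the other nuclei. Pan-neuronal markers, required of every neuron class, were also allowed below 2-fold. The excitatory cluster of 5421 nuclei, for example, had 1 of 9 excitatory markers at 2-fold. The naming rule was set after the clusters were seen. Doublets were scored with Scrublet (the highest 0.8% per 1000 nuclei counted as high) and not removed in the main sums. Stray RNA was estimated from the other classes' markers. The confidence level was 95%.

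Counts summed per library and class were compared with edgeR 4.0.16 in R 4.3.3 (TMM scaling, quasi-likelihood test, two-sided, genotype alone, at least 10 counts over the 4 libraries), with Benjamini-Hochberg adjustment over all genes tested. Class totals limit precision. Tested on simulated data, this brought 16.5% of genes changed 2-fold and 55.8% of genes changed 4-fold past the threshold in microglia, over 8924 genes. Of 23 genes changed 2-fold with 100 or more UMIs, 34.8% passed, and every member had at least 165 UMIs in microglia. The simulation gave all genes the same spread between libraries. DESeq2 1.42.0 was an alternative. The members and the gene lists were chosen with earlier results of these data known. Named were all 9 members and, from each list, genes past the threshold or else the 3 with the smallest p, the highest relative per family in microglia, and the 3 genes with the highest r per member. Some genes that these rules name are not reported here. Border macrophage nuclei, counts of genes without overlap, and the tests of the interaction under other settings were chosen after seeing the data. Positions are from GENCODE, promoters from RefSeq.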

Additional observations from a re-analysis of the deposited data

How the results depend on the processing

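In microglia 0 genes were called, against 170 by edgeR's likelihood-ratio test, 108 with detection in at least 10% of nuclei, 68 with at least 1000 UMIs per nucleus, 9 without high doublet scores, 1 after subtraction of stray RNA and 0 to 300 when 1 library was left out (300 without WT replicate 1, 106 without WT replicate 2, 20 without HET replicate 1). No member was called between genotypes in any class under any of these. In excitatory neurons DESeq2 and the likelihood-ratio test called 11 genes each, and leaving out 1 library gave 0 to 234, in inhibitory neurons 0 to 115, both highest without WT replicate 1. In endothelial cells the 108 calls became 27 by DESeq2, 168 by the likelihood-ratio test, 56 with at least 1000 UMIs, 54 without high doublet scores, 0 after subtraction of stray RNA, 0 at resolution 0.5, 1 with nuclei classed by marker UMIs and 28 to 260 when 1 library was left out (28 without HET replicate 1, 260 without WT replicate 1). With the replicate number as a block, endothelial calls were 252, and 0 in the other 3 classes. The numbers share no stated batch, and same-numbered libraries deviated together with r = 0.03, 0.01, 0.07 and 0.21 in microglia, excitatory, inhibitory and endothelial sums, so the pairing was not used. For the interactions, leaving out 1 library gave 1 to 221 calls against excitatory neurons (members 0 to 1, the 1 being Fli1 without WT replicate 1), 1 to 169 against inhibitory neurons and 0 to 15 against endothelial cells, where the likelihood-ratio test gave 7.

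With nuclei classed by marker UMIs, the log2 difference in microglia was -0.10 for Spi1, -0.27 for Irf8, -0.51 for Sall1, -0.33 for Maf, -0.37 for Runx1, -0.40 for Ikzf1, -0.21 for Mef2a and -0.34 for Fli1. The log2 ratio of microglia over inhibitory neurons was then -0.60 for Maf, over excitatory neurons -0.20 for Mef2c, and over endothelial cells -0.75 for Fli1. Of the 1439 nuclei of this class, 650 were in the microglial cluster and 524 in unnamed clusters, where 60.5% had high doublet scores. After subtraction of stray RNA the difference in microglia was -0.11 for Sall1, -0.070 for Maf and -0.085 for Ikzf1. With 1 library left out, Sall1 ran from -0.12 to 0.45 and Mef2c from -0.0087 to 0.32 in microglia, both lowest without WT replicate 2. In excitatory neurons these ranges were -0.98 to 0.011 for Spi1, -0.39 to 0.30 for Irf8, -1.19 to 0.27 for Sall1, -0.57 to 1.12 for Runx1, -0.33 to 0.34 for Ikzf1, -0.035 to 0.15 for Mef2a and -0.018 to 0.26 for Mef2c. In inhibitory neurons they were -0.33 to 0.59 for Sall1, -0.067 to 0.23 for Maf, -0.046 to 0.48 for Runx1 and -0.13 to 0.82 for Fli1. After subtraction of stray RNA excitatory Irf8 was 0.045 and Maf 0.14, and with library totals alone Ikzf1 was -0.018 and Mef2a -0.0046. Endothelial Maf was -0.012 at resolution 0.5 and -0.72 by marker UMIs, Mef2a -0.081 by marker UMIs, and Mef2c 0.44 after subtraction, 0.017 at resolution 0.5 and 0.076 by marker UMIs. Of 135 alternative values of a member in microglia, 13 changed direction. The causes were not tested beyond the construction of each alternative.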

Other observations

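Several unnamed clusters held the factors too. The mixed cluster of 58 nuclei with 16 of 16 microglial and 12 of 12 oligodendrocyte markers, 37 of them from WT replicate 2, held 314 CPM of Fli1, 853 CPM of Mef2a and 118 CPM of Sall1. A cluster of 150 nuclei led by Mrc1, F13a1, Ly86 and Dock8, of which 76.7% had high doublet scores, held 1482 CPM of Mef2c and 98.6 CPM of Maf. A cluster of 61 nuclei led by Vmn1r209, Trp73 and Ndnf, the last 2 known from Cajal-Retzius cells, held 600 CPM of Mef2a. The largest unnamed cluster, 8088 nuclei led by Otx2os1 and Ebf3, held 35.3 CPM of Maf.

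Csf1r, the gene that is disrupted, was also counted in neurons. In excitatory neurons it stood at 0.374 and 1.27 CPM in the WT libraries and at 3.79 and 4.51 CPM in HET, a log2 difference of 2.47 (edgeR adjusted p = 0.999988), and in inhibitory neurons at 1.33 and 1.49 CPM against 4.42 and 3.81 CPM. In both classes the HET libraries lay above the WT libraries, the opposite of microglia, and neither difference passed the adjusted threshold. Both were under an unadjusted edgeR p of 0.01 (0.000763 in excitatory and 0.00118 in inhibitory neurons), where 0.567% and 0.481% of all genes were.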
